A study of Mus musculus with 6 samples.

Results

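Carbonic anhydrases were followed in mouse pancreatic islets after a 24 hour pulse of Sox17. The family was taken up because Car2 rises strongly in these samples, so its 10 genes (Car2, Car3, Car4, Car5b, Car8, Car9, Car10, Car11, Car12 and Car13) were chosen by a rule that used the measured difference of Car2 between the groups. Each gene is read by the probe set that carries its symbol alone and is brightest over the 6 arrays, and the 10 stand among 19937 genes so represented. All 10 were found. A further 6 genes of the family (Car1, Car5a, Car6, Car7, Car14 and Car15) were also measured, and each of the 16 had 1 probe set. The differences of the 10 genes between groups are therefore a description. Each is given with its interval and without a p, and counts of the 10 past a threshold stand beside those over all genes.

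Carbonic anhydrases turn carbon dioxide and water into bicarbonate and a proton, and back. Most hold a zinc ion at the active site. Some isoforms work in the cytosol, some in mitochondria, and some face the outside of the cell at its membrane, while a few related proteins have lost the zinc site and the activity and serve as binding proteins. In the pancreas the family is best known from duct cells, which secrete bicarbonate, and in islets it has been linked to acid-base balance and to the bicarbonate that carboxylases of metabolism consume.

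The control samples were 3 biological replicates of the genotype Ins2-rtTA and the Sox17-GOF samples 3 of the genotype Ins2-rtTA;tetO-Sox17. All mice were 16 weeks old, had been crossed from an outbred stock to C57BL/6 for 3 or more generations, and were given doxycycline (Dox) for 24 hours. The insulin gene promoter drives rtTA in β cells, and Dox lets rtTA turn on the tetO-Sox17 transgene, so by these labels only the Sox17-GOF mice carried that transgene, and its presence then cannot be told apart from its induction. For another experiment with this model the study names controls that carry tetO-Sox17, and the labels were followed here. Islet RNA was hybridised to Affymetrix Mouse Gene ST arrays, 1 array per sample, and values are log2 signals after RMA, in which 1 unit is a 2-fold difference. Sox17 had log2 levels of 5.50, 5.72 and 5.71 in control and 6.35, 6.22 and 6.36 in Sox17-GOF islets (1.59-fold, adjusted p = 0.00876 from limma, exact permutation p = 0.10 (two-sided), the smallest that 3 samples against 3 can give). Arrays of a group correlated at 0.989 to 0.995 across named probe sets, and Sox17-GOF replicate 3 stood apart on the second principal component (-26.3, against 17.4 and 13.1 for replicates 1 and 2). The hormone genes Gcg and Ins2 had mean log2 levels of 13.71 and 13.09 in control islets, as the tissue label has it, but the acinar gene Ctrb1 was at 13.75 (these 3 were named after their values were seen), so the islets were not free of exocrine RNA. In whole islets, fewer cells of a type and less RNA per cell cannot be told apart.

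Promoter windows of the family, from RefSeq on the GRCm38.p6 build, run from 250 bases before to 50 bases after a transcription start. The table held 8 windows of 6 of the 10 genes (Car4, Car5b, Car9, Car10, Car11 and Car12) and none of Car2, Car3, Car8 or Car13. The core letters that SOX proteins bind, ACAAT on either strand, were in 0 of these 8 windows and in 31.0% of all 32851. The core of the hypoxia response element, ACGTG on either strand, was in 3 of the 8, in windows of Car4, Car9 and Car10, and in 19.6% of all. The windows of Car9, the isoform best known for its induction by hypoxia, and of Car10, a member that was lower in Sox17-GOF islets, are shown because both hold that core while the genes differed in their values. Capitals mark the core in either orientation. It begins 18 bases before the start in Car9 (chr4:43506776-43507075, plus strand) and 145 bases before it in this window of Car10 (chr11:93099040-93099339, plus strand). A match says only that these letters are there.
Car9: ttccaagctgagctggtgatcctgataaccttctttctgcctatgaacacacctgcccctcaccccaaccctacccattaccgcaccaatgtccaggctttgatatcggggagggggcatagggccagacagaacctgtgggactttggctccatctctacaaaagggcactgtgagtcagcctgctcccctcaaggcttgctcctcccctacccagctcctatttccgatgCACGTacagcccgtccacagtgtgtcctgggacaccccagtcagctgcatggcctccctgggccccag
Car10: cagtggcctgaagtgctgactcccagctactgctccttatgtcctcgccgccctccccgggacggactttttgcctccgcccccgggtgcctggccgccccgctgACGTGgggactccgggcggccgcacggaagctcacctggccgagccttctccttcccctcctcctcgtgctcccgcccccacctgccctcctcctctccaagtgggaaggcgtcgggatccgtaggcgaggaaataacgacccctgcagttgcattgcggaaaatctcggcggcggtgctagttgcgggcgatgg

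Of the 10 genes, 3 passed an adjusted p of 0.05 in the fit over all named probe sets, Car2 and Car13 higher and Car10 lower. Among all 19937 genes 5.21% passed, 2.77% higher and 2.44% lower. Car2, chosen for its difference, differed most. Its rise was larger than that of Car13 by 1.84 on the log2 scale, and the 7 genes that did not pass had log2 fold changes between -0.15 and 0.34. The median over the 10 was 0.14, against -0.01 over all genes. The control and Sox17-GOF values did not overlap in 6 of the 10, 4 higher and 2 lower, and in 25.5% of all genes. Since the choice of the family used this contrast, nothing is read from these counts.

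**Figure D1:**
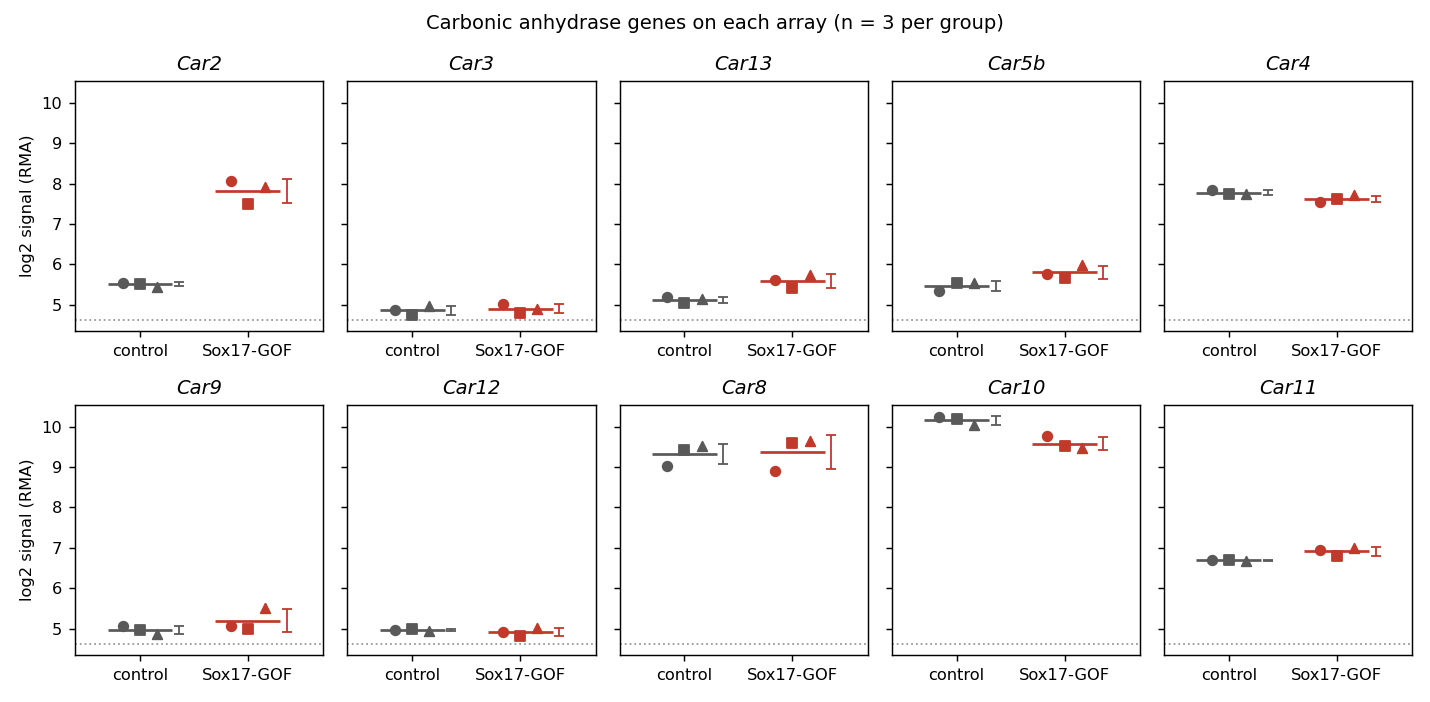
Log2 signal of the 10 carbonic anhydrase genes on each array (circles, squares and triangles are replicates 1, 2 and 3; grey for control and red for Sox17-GOF), the mean as a line, the SD as a bar beside it, and the 20th percentile of all values (4.63) as a dotted line. Car2 rises from about 5.5 to between 7.48 and 8.05, Car10 falls, and most other genes move little; levels of different genes come from different probes and are not to be compared.

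Among the cytosolic enzymes, Car2, the fast and widespread isoform, had log2 levels of 5.55, 5.53 and 5.45 on the control arrays and 8.05, 7.48 and 7.91 on the Sox17-GOF arrays. The groups were far apart, with a gap of 1.94 between the highest control and the lowest Sox17-GOF array. This was a 4.95-fold rise (log2 fold change 2.31, standard error 0.14, 95% interval 1.98 to 2.64), the 25th largest increase among the 19937 genes. The Sox17-GOF arrays spread more (SD 0.30, n = 3) than the control arrays (SD 0.05, n = 3). Leaving out any 1 array gave log2 fold changes of 2.19 to 2.47.

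Car13, another cytosolic isoform, had log2 levels of 5.18, 5.04 and 5.14 in control and 5.62, 5.41 and 5.74 in Sox17-GOF islets. All Sox17-GOF arrays lay above all control arrays, at a low level in both groups. The log2 fold change was 0.47 (standard error 0.10, 95% interval 0.23 to 0.70), a 1.38-fold rise. Its call ended without any 1 array other than Sox17-GOF replicate 2, with all probe sets tested and with the replicate number as a block. Car3, a slow isoform of muscle and fat, lay between 4.76 and 4.98 in control and between 4.79 and 5.02 in Sox17-GOF islets, close to the 20th percentile of all array values (4.63). Its groups overlapped, and the 95% interval of its log2 fold change was -0.18 to 0.26. Of the cytosolic isoforms outside the 10, Car1, the abundant red cell enzyme, and Car7 did not pass (log2 fold changes 0.00 and -0.00, standard errors 0.17 and 0.13, adjusted p = 0.994 for both).

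Car13, Car1, Car3 and Car2 lie next to each other, in this order, on mouse chromosome 3. Their log2 fold changes, in the same order, were 0.47, 0.00, 0.04 and 2.31. Since Car2 was chosen for its rise in this contrast, nothing is read from its standing above its neighbours. Car3, the direct neighbour of Car2, did not pass the test, nor did Car1. Beyond the cluster, the nearest measured protein-coding genes, named for their position after their values were seen, were Rbis, E2f5 and Lrrcc1 on the side of Car13 and Gm9733 on the side of Car2. Their log2 fold changes were -0.21, 0.17, 0.25 and -0.04, and none of these 4 passed with limma (adjusted p from 0.258 to 0.867).

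**Figure D2:**
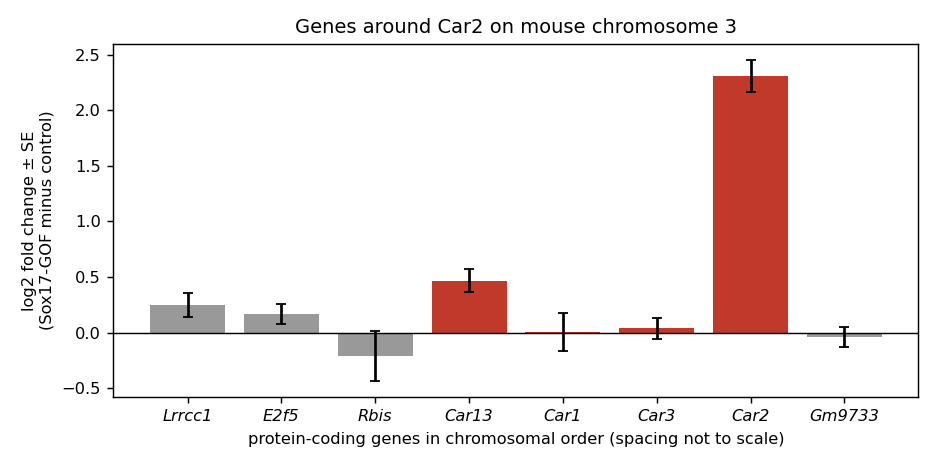
Log2 fold change (Sox17-GOF minus control, 3 arrays each) of measured protein-coding genes around Car2 in their order on chromosome 3, carbonic anhydrases in red, with standard errors as bars. The bar of Car2 (2.31) stands over that of Car13 (0.47), while Car1 and Car3 between them are near 0.

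Car5b, the mitochondrial isoform found in many tissues, had log2 levels of 5.33, 5.53 and 5.54 in control and 5.76, 5.66 and 5.99 in Sox17-GOF islets. The groups did not overlap, though the difference was small. The log2 fold change was 0.34 (standard error 0.11, 95% interval 0.08 to 0.59) and did not pass the adjusted threshold. The gene lies on the X chromosome. On all 6 arrays Xist was between 4.56 and 4.74, near the 20th percentile, and the Y-linked gene Kdm5d between 7.80 and 8.29, both named after their values were seen. Car5a, the liver form, had a log2 fold change of 0.04 ± 0.12 (SE, limma adjusted p = 0.891).

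Of the isoforms that face outward, Car4, anchored to the membrane and known from capillaries and kidney, had log2 levels of 7.84, 7.75 and 7.74 in control and 7.55, 7.62 and 7.71 in Sox17-GOF islets. Every Sox17-GOF value lay below every control value, but only just. The log2 fold change of -0.15 (standard error 0.08, 95% interval -0.33 to 0.03) did not pass. Of 8 endothelial markers 1 was lower and 7 did not pass. Kdr, a VEGF receptor, fell by 0.68 (log2, limma adjusted p = 0.0160), a call lost when Sox17-GOF replicate 2 was left out, or 1 of control replicates 1 and 3, while Pecam1, named after its value was seen, had a log2 fold change of 0.37 (adjusted p = 0.110). The linear signals of the 8 markers summed to between 3399 and 3616 in control and between 2721 and 3250 in Sox17-GOF islets. The part of endothelial RNA in the values of Car4 was not tested.

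Car9, a transmembrane isoform of hypoxic cells, had log2 levels of 5.07, 4.97 and 4.86 in control and 5.07, 4.99 and 5.51 in Sox17-GOF islets. Sox17-GOF replicate 3 stood clear of all other arrays, and the log2 fold change was 0.22 (standard error 0.14, 95% interval -0.11 to 0.56) with that array and 0.06 without it. Car12, another transmembrane isoform, lay between 4.93 and 4.98 in control and between 4.82 and 5.02 in Sox17-GOF islets. These ranges overlapped, with a 95% interval of -0.22 to 0.15 for the log2 fold change.

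Of the outward-facing isoforms that are not among the 10, Car15, a membrane-anchored enzyme, had log2 levels of 7.74, 7.78 and 7.73 in control and 7.09, 7.40 and 7.00 in Sox17-GOF islets. All Sox17-GOF arrays lay below all control arrays, and Car15 fell by 0.59 ± 0.11 (log2 scale, SE, limma adjusted p = 0.0285). It was the sole gene of these 6 to pass. Its call held without Sox17-GOF replicate 2 and ended without any other array (adjusted p up to 0.114) and with all probe sets tested (adjusted p = 0.0731). Car14 had a log2 fold change of -0.14 ± 0.10 (SE, limma adjusted p = 0.514). Car6, the secreted isoform of saliva, lay below the 20th percentile in both groups.

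Of the 3 carbonic anhydrase-related proteins without catalysis, Car10 was lower, and Car11 and Car8 did not pass. Among all genes 2.44% were lower. Since this contrast chose the family, nothing is read from this count. Car10, a secreted-pathway protein that binds neurexins, had log2 levels of 10.24, 10.19 and 10.04 in control and 9.76, 9.51 and 9.47 in Sox17-GOF islets. The lowest control array lay above the highest Sox17-GOF array. Car10 was 1.49-fold lower, with a log2 fold change of -0.57 (standard error 0.10, 95% interval -0.81 to -0.33). Its call ended without control replicate 1 or 2, without Sox17-GOF replicate 2 or 3, and with all probe sets tested.

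Car11, its closest relative, had log2 levels of 6.69, 6.69 and 6.68 in control and 6.95, 6.79 and 7.01 in Sox17-GOF islets. The groups did not overlap, and the control arrays were nearly equal. The log2 fold change of 0.23 (standard error 0.08, 95% interval 0.04 to 0.42) did not pass the adjusted threshold. Car8, which binds the inositol trisphosphate receptor, had log2 levels of 9.02, 9.43 and 9.51 in control and 8.90, 9.60 and 9.65 in Sox17-GOF islets. Replicate 1 was the lowest array in each group, and this spread (SD 0.42 in Sox17-GOF islets, n = 3) was the widest of the 10 genes, so that a log2 fold change as low as -0.45 or as high as 0.57 lies within the 95% interval. Of their binding partners, Itpr2, Itpr3, Nrxn2 and Nrxn3 were measured and 0 of 4 passed with limma (2 at an unadjusted p of 0.05, by limma and by the methods' t-test, which called 0). Itpr3, named after its value was seen, had a log2 fold change of -0.35 ± 0.08 (SE, limma adjusted p = 0.0556).

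**Figure D3:**
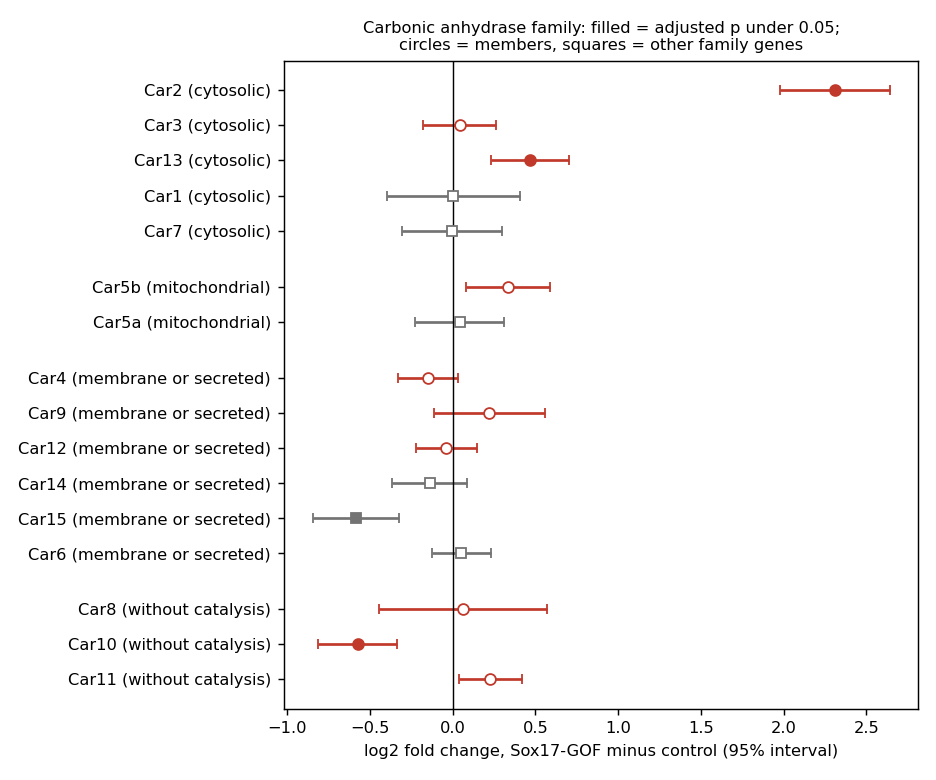
Log2 fold change (Sox17-GOF minus control) with its 95% interval for the 16 measured carbonic anhydrase genes, grouped by where the protein works. Circles are the 10 genes followed, squares the other 6, and filled symbols passed an adjusted p of 0.05. Car2 (2.31) lies apart from all others, Car13 is the other filled symbol above 0, and Car10 and Car15 lie near -0.6.

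Within the Sox17-GOF group, replicate 2 gave the lowest value for 7 of the 10 genes (Car2, Car3, Car5b, Car9, Car11, Car12 and Car13), as it did for 32.3% of all genes. Sox17 was also lowest on that array (6.22, against 6.35 and 6.36). Without replicate 2 the log2 fold changes of Car2 and Car13 were 2.47 and 0.56. Whether the level of Sox17 bears on these values was not tested.

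Some genes lay close to Car2 in their changes from control. Likeness was measured as the root mean square difference over the 6 arrays, after each gene was set relative to its own control mean, so it mostly follows the difference between the groups that Car2 was chosen for. The nearest was Rcn1, a calcium-binding protein of the endoplasmic reticulum, at 0.14. Its log2 levels were 9.23, 9.11 and 9.12 in control and 11.63, 11.45 and 11.56 in Sox17-GOF islets. Next came Ankub1 (0.16), the myelin gene Pmp22 (0.17), the acyl-CoA thioesterase Acot7 (0.21) and Mfge8, a secreted glycoprotein (0.22). Their mean levels rose by 2.41, 2.15, 2.49 and 2.01 on the log2 scale. Ankub1 rose from control levels of 4.04, 4.19 and 4.04, below the 20th percentile of all values (4.63). Rcn1, Pmp22, Acot7 and Mfge8 were highest in Sox17-GOF replicate 1, as Car2 was, and Ankub1 in replicate 3. The same arrays chose these 5 genes, so nothing is read from this order.

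The transporters and enzymes that share bicarbonate, protons or lactate with the carbonic anhydrases mostly did not pass. Of 14 measured bicarbonate and chloride exchangers 0 passed with limma (2 at an unadjusted p of 0.05 by limma and by the methods' t-test, which called 0), with a median log2 fold change of 0.02. Slc4a10, a sodium-coupled bicarbonate transporter named after its value was seen, had a log2 fold change of -0.48 ± 0.15 (SE, limma adjusted p = 0.123). Of 11 proton exchangers and pumps 1 was higher and 10 did not pass, with a median of -0.01. The one that rose was Atp12a, the non-gastric proton-potassium pump. Its log2 levels were 4.67, 4.77 and 4.65 in control, close to the 20th percentile (4.63), and 5.97, 6.30 and 6.13 in Sox17-GOF islets. The groups lay well apart, with a 2.71-fold rise (log2 fold change 1.44 ± 0.10 (SE), limma adjusted p = 0.000561), and its call held in all 15 alternatives that were run. For lactate transport 0 of 6 passed (0 at an unadjusted p of 0.05 by either test), with a median of 0.00.

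Of 10 measured enzymes that use bicarbonate 1 was higher and 9 did not pass, with a median log2 fold change of -0.06. At an unadjusted p of 0.05 limma gave 5 of the 10, Mccc1 among them. The methods' t-test gave 3, and 0 after adjustment. Mccc1, a subunit of the carboxylase of leucine breakdown, had log2 levels of 8.36, 8.25 and 8.08 in control and 9.35, 8.93 and 8.92 in Sox17-GOF islets. It rose without overlap (log2 fold change 0.84 ± 0.14 (SE), limma adjusted p = 0.0160), while its partner subunit Mccc2, named after its value was seen, had a log2 fold change of -0.46 ± 0.10 (SE, limma adjusted p = 0.0523). The call of Mccc1 ended without control replicate 2 or 3 and with all probe sets tested. Pcx, pyruvate carboxylase, also named after its value was seen, had a log2 fold change of -0.47 ± 0.14 (SE, limma adjusted p = 0.104).

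Genes induced by hypoxia, set beside Car9 and Car12, moved both ways. Of 13 measured, 1 was higher, 2 were lower and 10 did not pass, with a median log2 fold change of 0.10. Vegfa, an angiogenic factor, fell by 0.57 ± 0.10 (log2 scale, SE, limma adjusted p = 0.0192) and Bnip3, a mitophagy receptor, fell by 0.56 ± 0.09 (log2 scale, SE, limma adjusted p = 0.0166). Bnip3 has 2 probe sets, and their mean fell by less, 0.42 (log2 scale, limma adjusted p = 0.0431). Pgk1, a glycolytic kinase, was higher by 0.56 ± 0.10 (log2 scale, SE, limma adjusted p = 0.0192). Each of these 3 calls ended without control replicate 1 or 2. With all probe sets tested, those of Pgk1 and Vegfa ended (adjusted p = 0.0540 and 0.0543). That of Pgk1 also ended without control replicate 3 or Sox17-GOF replicate 2, that of Bnip3 without control replicate 3, and that of Vegfa without Sox17-GOF replicate 2 and with the replicate number as a block.

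**Figure D4:**
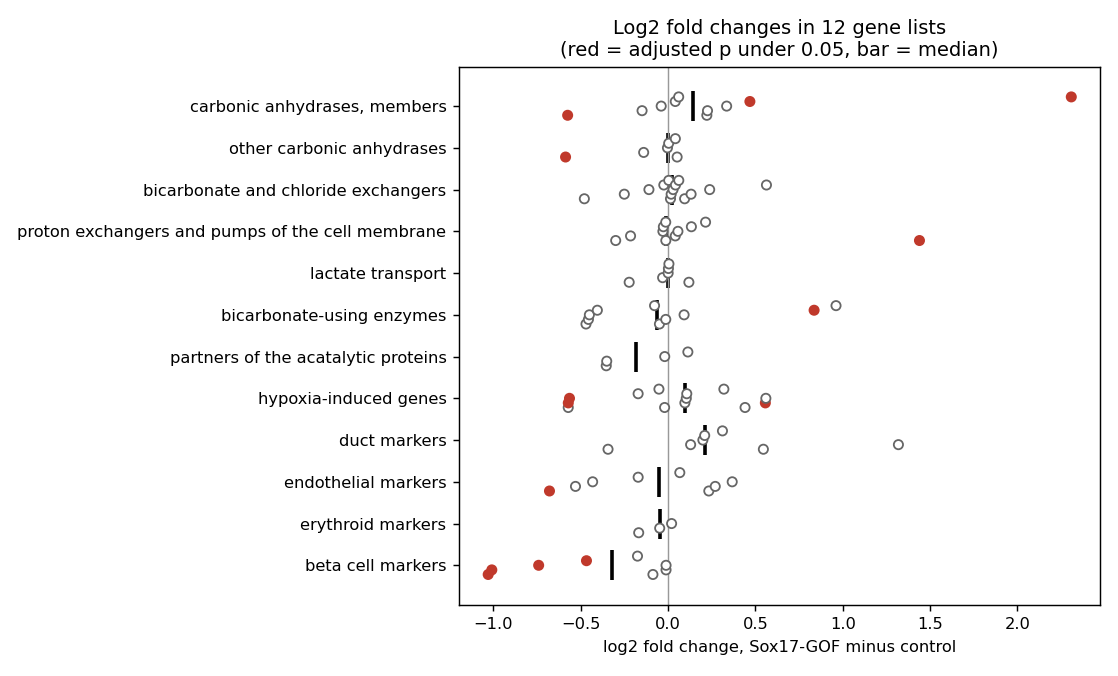
Log2 fold changes (Sox17-GOF minus control, 3 arrays each) of the measured genes of 12 lists. Each circle is a gene, filled red if it passed an adjusted p of 0.05, and a black bar gives the median of the list. Car2 and Atp12a (1.44) lie farthest to the right, and the β cell markers lie at or below 0.

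Car2 is also a gene of duct cells and of red cells, so markers of these were set beside it. Of 7 measured duct markers 0 passed with limma (2 at an unadjusted p of 0.05 by limma and 1 by the methods' t-test, which called 0), with a median log2 fold change of 0.21. Their linear signals summed to between 7624 and 8448 in control and between 8466 and 8751 in Sox17-GOF islets. Krt19, a duct keratin, had log2 levels of 6.53, 6.30 and 6.16 in control and 6.74, 7.07 and 9.13 in Sox17-GOF islets, so that replicate 3 stood far above the other arrays. Car2 was 8.05, 7.48 and 7.91 on the same Sox17-GOF arrays, with a log2 fold change of 2.26 without replicate 3. Krt7, another duct keratin, had a log2 fold change of -0.34 (adjusted p = 0.0849), and Cftr, the chloride channel of duct cells, named after its value was seen, lay below the 20th percentile in both groups. Of the 3 measured erythroid markers (Alas2, Klf1 and, named after its value was seen, Epb42) 0 passed with limma or the methods' t-test (0 at an unadjusted p of 0.05 by either), and their linear signals summed to between 161 and 176 in control and between 152 and 164 in Sox17-GOF islets. The summed signal of the 7 duct markers was thus higher on every Sox17-GOF array than on any control array, but only just (8466 against 8448). Of the 7, 6 had log2 fold changes above 0, and Krt7 alone was below. The sum weighs most on Tm4sf4, the brightest of the 7, named after its value was seen. Tm4sf4 had mean log2 levels of 12.38 in control and 12.51 in Sox17-GOF islets (limma adjusted p = 0.432). The part of duct or red cell RNA in the values of Car2 was not tested. Among β cell markers 4 of 8 were lower and none was higher with limma, with a median of -0.32. They included Ucn3 (log2 fold change -1.03, adjusted p = 0.00436), Slc2a2, the glucose transporter (-1.01, adjusted p = 0.00745) and G6pc2 (-0.74, adjusted p = 0.0206), whose call was lost on leaving out Sox17-GOF replicate 1 or any 1 of the controls, with the replicate number as a block and with all probe sets tested (adjusted p = 0.0606). The fourth was Pdx1, a β cell transcription factor named after its value was seen (-0.47, adjusted p = 0.0327), whose call ended in 10 of 15 alternatives, among them each that left out 1 array. Of the markers of α, δ and PP cells (7), acinar cells (6), adipocytes (6), stellate cells and fibroblasts (7), Schwann cells and glia (5) and macrophages (6), 0 passed with limma or the methods' t-test, and at an unadjusted p of 0.05 limma gave 0, 0, 1, 3, 0 and 1. Highest and lowest log2 fold changes were -0.03 (Sst) and -0.10 (Irx1) for α, δ and PP cells. Acinar markers had 0.09 (Rbpjl) and -0.13 (Cpa1). For stellate cells and fibroblasts they were 1.17 (Lum, control mean 4.22, below the 20th percentile) and 0.10 (Col1a1). Schwann cells and glia had 0.15 (Foxd3) and -0.17 (Mbp), and macrophages 0.36 (Cd14) and -0.62 (Ptprc). Of the adipocyte markers, set beside Car3, Fabp4 had the highest log2 fold change (0.85, adjusted p = 0.240), and Retn the lowest (-0.077, adjusted p = 0.662). Adipoq and Lep, named after their values were seen, lay below the 20th percentile in both groups.

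Sox17-GOF replicate 3, where Car9 was highest, was high in other genes as well, all named after their values were seen. Ldha, a lactate-forming enzyme, reached 8.52 there and 7.48 and 7.50 on replicates 1 and 2. Cps1, the ammonia-fixing enzyme that uses bicarbonate, reached 7.61 there and 5.32 and 5.03 on the others. Slc26a3, a chloride and bicarbonate exchanger of gut epithelium, reached 5.92 there and 4.24 and 3.93 on the others. These genes and Krt19 moved with Car9 on 1 array, and their relation was not tested.

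**Figure D5:**
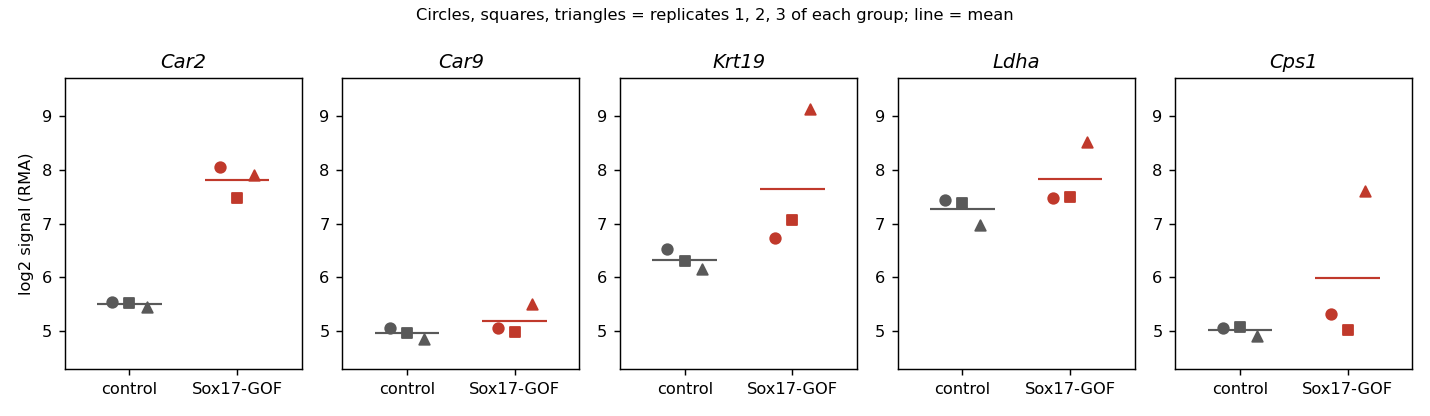
Log2 signal of Car2, Car9, Krt19, Ldha and Cps1 on each array (circles, squares and triangles are replicates 1, 2 and 3; grey for control and red for Sox17-GOF; the line is the group mean). Replicate 3 of the Sox17-GOF group is the highest array for Car9, Krt19 (9.13), Ldha and Cps1, while Car2 is highest on replicate 1 (8.05).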

How the data were processed

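Total islet RNA of 3 control and 3 Sox17-GOF samples was hybridised to the Mouse Gene ST 1.0 array of Affymetrix. The deposited values are log2 signals that the authors made by RMA (background correction, quantile normalization of probes and median polish per probe set). The methods name GeneSpring 10.1 for this, and the submitters' processing notes Affymetrix Expression Console. Nothing was rescaled.
Groups follow the genotype in the labels. A symbol was listed for 22961 of 34760 probe sets, and these were tested using limma 3.58.1 under R 4.3.3 (lmFit, then eBayes with no trend), with Benjamini-Hochberg adjustment over all of them and a threshold of 0.05. Probe sets with several symbols (1321) stand for no gene. Values under 4.63, the 20th percentile of all values, were taken as near background. Precision is limited by how many arrays there are, as RMA signals hold no read depth. The procedure was first tested on simulated data. It called 41 of 100 log2 changes of 0.5, 85 of 100 changes of 1, and 5 of 22761 unchanged probe sets. Not passing therefore does not show that a gene is unchanged.
The members and gene lists were chosen with earlier results of these data known. In total 161 genes were listed and 141 measured. Genes named are all carbonic anhydrases, Sox17, up to 3 passing members of a list with the largest change (for cell type lists without one, the highest and lowest), and the 5 genes nearest to Car2. Others are marked in the text, Epb42 and the chromosome 3 neighbours included. Alternatives left out each array in turn, tested all probe sets, dropped dim ones, averaged the probe sets of a gene, blocked on replicate number, weighted arrays, let the variance follow intensity, rescaled by medians or quantiles, or used the methods' t-test. That t-test was adjusted here in the same way as limma, without the fold filter of the methods, which name no adjustment for it. A comparison of active site residues was planned, but protein sequences were not used here.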

Additional observations from a re-analysis of the deposited data

How the results depend on the processing

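The log2 fold change of Car2 ran from 2.19 to 2.47 when 1 array was left out. The count of carbonic anhydrases past the threshold, 3 of 10 with limma, was 1 with all probe sets and 0 with the methods' t-test (5 at an unadjusted p of 0.05, as with limma), and 1 to 2 when 1 array was left out. Since this contrast chose the family, nothing is read from these counts. Over all named probe sets, 1133 passed. The methods' t-test, adjusted likewise, called 71, and leaving out 1 array gave 385 to 1020 (fewer samples). With all 34760 probe sets, 558 passed, in a fit that made more tests and pooled variances over more probe sets. Their shares in the lower count were not tested. The labels do not say whether the replicate numbers pair the samples. Deviations of same-numbered arrays correlated at 0.05, -0.02 and -0.04, which with 3 arrays per group cannot settle it. With the replicate number as a block, 720 probe sets passed, and Car2 and Car10 but not Car13. Of the named genes outside the 10, Car15, Sox17, Pmp22, Mccc1, Vegfa, Pgk1, Bnip3, Kdr, Ucn3, Slc2a2, G6pc2 and Pdx1 lost their calls with the methods' t-test. These calls rest on the adjusted p, while the methods name an unadjusted p with a fold filter. Small differences changed sign in some settings. Without 1 array in turn, log2 fold changes ran from -0.13 to 0.17 for Car1, -0.016 to 0.099 for Car3, -0.020 to 0.155 for Car5a, -0.081 to 0.12 for Car7, -0.087 to 0.30 for Car8 and -0.091 to 0.0093 for Car12, and that of Car7 was 0.029 with array weights. The 10 genes gave 150 values under the alternatives, of which 129 kept direction and side of the threshold, 15 lost the call and 6 changed sign. Signals near 4.63 limit what Car3, Car9 and Car12 can show.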
